A study of Mus musculus with 6 samples.

Results

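The 10 genes described here encode adhesion molecules that fibroblasts display to leukocytes and to one another: Vcam1, Icam1, Thy1, Alcam, Ncam1, Cdh2, Cdh11, Pdpn, F11r and Jam2. They were chosen by symbol, with earlier results of these data known, and each was found by its Ensembl identifier among the 45706 genes of the deposited table. All 10 also passed the filter on low counts, which kept 14635 genes. The study sequenced total RNA from mouse lung fibroblasts, cells grown in culture for 7 days from collagenase- and trypsin-digested lungs. The control group (3 libraries) is labelled as control and, in the column names, as UNT, and cells of the DKK1 group (3 libraries) were given 30 ng/ml of recombinant mouse DKK1 and kept with it for 24 hours. DKK1 (Dickkopf-1) is a secreted inhibitor of canonical Wnt signalling that occupies the co-receptors LRP5 and LRP6. No genotype, strain, age, sex or number of animals is given in the sources used here, nor whether replicates were separate cultures, so p-values measure the spread between these libraries only, which may be technical.

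Leukocytes stop and move in tissue by binding, through integrins and other receptors, to proteins on the surface of stromal and endothelial cells. VCAM-1 binds the integrin alpha4 beta1, and ICAM-1 binds the beta2 integrins LFA-1 and Mac-1. Both are immunoglobulin-type proteins whose genes are classic targets of inflammatory cytokines. Podoplanin (Pdpn) is a mucin-like glycoprotein that binds the platelet and dendritic cell receptor CLEC-2 and, on the inner side, the linker proteins ezrin and moesin. Cadherins such as N-cadherin (Cdh2) and cadherin-11 (Cdh11) join fibroblasts to each other, with catenins as their link to actin.

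The libraries held 22565917 to 34727102 counts. The 8 fibroblast markers summed to between 14366 and 17175 CPM in the 6 libraries, where CPM is a count scaled to a library total of 1000000 counts. Most of that sum was Col1a1, Fn1, Col1a2 and Col3a1, while Dcn was at 33.0 to 65.4 CPM and Lum at 1.77 to 2.72 CPM. With the replicate block described below, 2 of the 8 markers (Dcn and Pdgfra) were called higher and 4 lower (Col1a1, Col1a2, Pdgfrb and Fn1). Without the block their lowest edgeR adjusted p was 0.0791, for Dcn. In the library numbered 3 of each group the fibroblast sum was the lowest, and the summed markers of leukocytes, epithelium, blood and lymphatic endothelium, mesothelium and pericytes were the highest. The 10 leukocyte markers summed to 395, 459 and 799.9 CPM in control libraries 1, 2 and 3 and to 425, 469.9 and 816 CPM in the DKK1 libraries, most of it Lyz2, at 340 to 722 CPM, while the T cell gene Cd3e was at 0 counts in every library. Epithelial markers summed to 44.8, 49.8 and 131 CPM in control and to 45.8, 40.3 and 130.02 CPM with DKK1. Blood endothelial markers summed to 30.5, 27.0 and 73.5 CPM in control and to 34.4, 24.8 and 74.3 CPM with DKK1. In bulk RNA, fewer cells of a type and less RNA per cell cannot be told apart.

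Of the 10 members, only Pdpn passed the threshold in the unpaired edgeR fit with the low-count filter (3 DKK1 against 3 control libraries). It was higher with DKK1. Vcam1 and Icam1 were higher in every DKK1 library than in any control library, and in the edgeR fits with the low-count filter they passed the threshold only when the replicate number was added to the model. DESeq2 called Vcam1 also without that number. Thy1 and Alcam were lower in each DKK1 library than in the control library of the same number, by a small amount, and also passed only with the replicate number. The transcripts of Ncam1, Cdh2, Cdh11, F11r and Jam2 did not pass in either fit, although Jam2 was also higher in every DKK1 library than in any control library.

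Of the 10 members, 1 was called higher and 0 lower when genes with an adjusted p under 0.05 were called (quasi-likelihood test of edgeR, with Benjamini-Hochberg adjustment over the whole table). Over all tested genes, 0.697% were called higher and 0.198% lower. At an unadjusted p under 0.05 there were 4 members, beside 10.6% of all tested genes. DESeq2 called 2 members, both higher, where it called 1.50% of genes higher and 0.618% lower. With the replicate number as a block, 3 members were called higher and 2 lower, where 4.96% of all tested genes were called higher and 4.46% lower. In 4 members every DKK1 library was above every control library, and in none was it below. The same held for 9.40% and 7.14% of all tested genes. The median log2 fold change of the 10 members was 0.01, beside -0.00 over all tested genes.

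**Figure D1:**
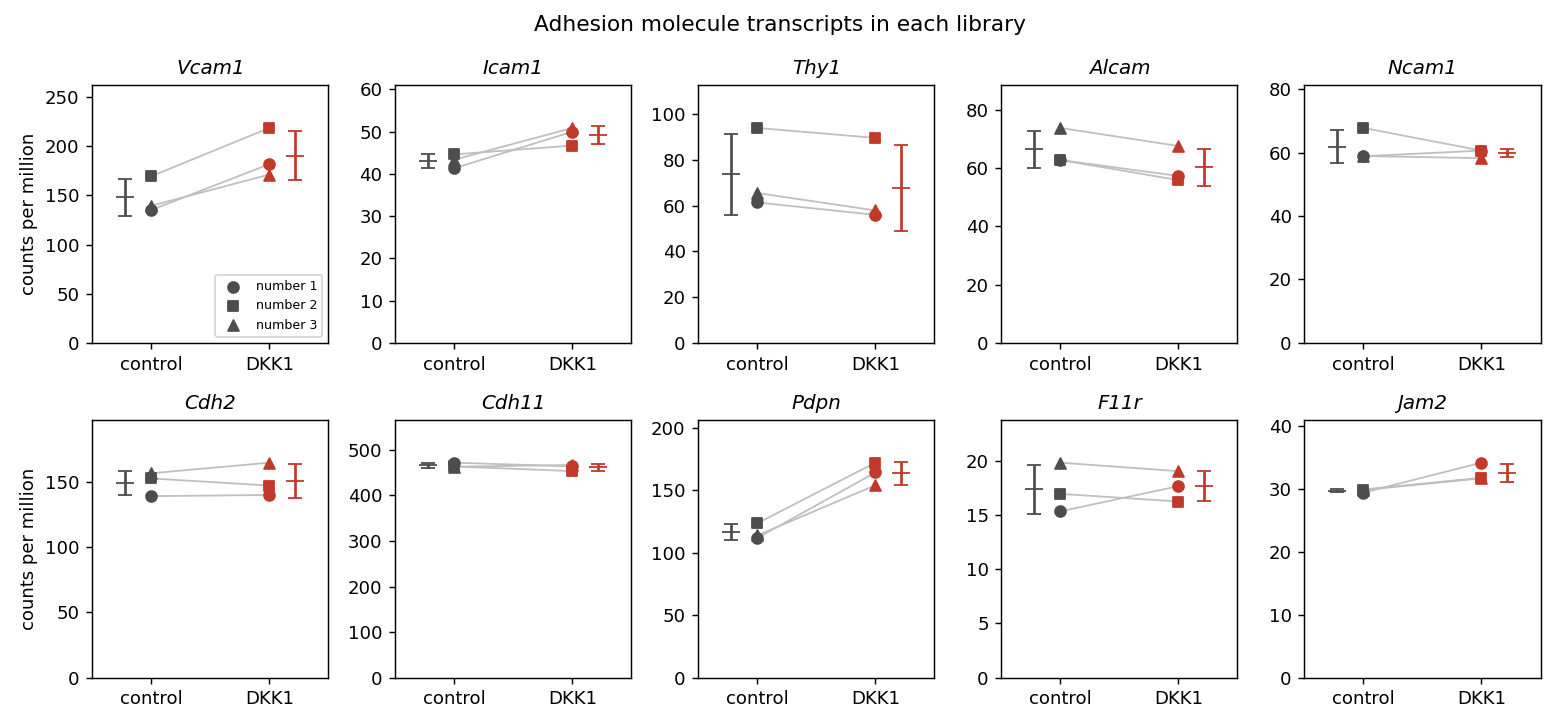
Level of each of the 10 transcripts in CPM (vertical axis, from 0) in the control and DKK1 libraries, with grey lines joining libraries of the same number and bars giving the mean and SD of 3 libraries. Pdpn, Vcam1, Icam1 and Jam2 are higher in every DKK1 library than in any control library, whereas the Thy1 values spread by number, with 93.9 and 89.5 CPM in the libraries numbered 2.

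Pdpn (ENSMUSG00000028583, chr4:143267431-143299564 on the minus strand of GRCm38) measured 112, 124 and 114 CPM in control libraries 1, 2 and 3 and 164, 172 and 154 CPM in the DKK1 libraries. The groups did not overlap, and the lowest DKK1 library exceeded the highest control library by more than the SD within either group. Pdpn went up from a mean of 116 ± 6.30 to 163 ± 9.05 CPM (SD, n = 3 each), a 1.40-fold change with a 95% interval of 1.28 to 1.53 (log2 fold change 0.48, SE 0.06, edgeR adjusted p = 0.0076). Within the same-numbered pairs it was 46.9%, 39.2% and 35.3% higher. Leaving out the DKK1 library numbered 1 gave nearly the same log2 fold change, 0.48, with an edgeR adjusted p of 0.0502, just past the threshold. Without both libraries numbered 3, where the markers of 6 other cell types summed highest, the log2 fold change was 0.51 (edgeR adjusted p = 0.0133). The lymphatic endothelial markers, a list included because that cell type also carries podoplanin, summed to 29.8, 25.6 and 32.9 CPM in control and 29.6, 24.4 and 33.4 CPM with DKK1. Most of that sum was Flt4, Ccl21a was at 0 counts in every library, and Lyve1 was between 0.532 and 1.94 CPM. Mesothelial markers summed to 10.9, 9.73 and 28.1 CPM in control and to 10.4, 10.6 and 31.6 CPM with DKK1, and the epithelial sums are given above. The part of any of these cell types in the Pdpn level was not tested.

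The 250 bases before the start of a gene were available from RefSeq (GRCm38.p6) for 4 of the 10 members: Icam1, Alcam, Pdpn and F11r. The start is that of the RefSeq table, which for Icam1, Alcam and F11r is not the outer end of the gene as annotated by GENCODE and given here. Those of Pdpn and Icam1 are shown because they are the members among these 4 that were called higher, Pdpn in both fits and Icam1 with the replicate block. They run 5′ to 3′ on the strand of the gene, at chr4:143299565-143299814 (minus strand) for Pdpn and chr9:21015690-21015939 (plus strand) for Icam1, and capitals mark matches to the motifs named in the next paragraph.
Pdpn: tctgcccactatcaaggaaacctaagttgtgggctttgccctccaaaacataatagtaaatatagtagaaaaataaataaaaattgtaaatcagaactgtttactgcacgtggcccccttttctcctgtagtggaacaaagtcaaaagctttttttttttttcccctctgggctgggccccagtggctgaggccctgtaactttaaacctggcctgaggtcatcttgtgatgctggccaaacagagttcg
Icam1: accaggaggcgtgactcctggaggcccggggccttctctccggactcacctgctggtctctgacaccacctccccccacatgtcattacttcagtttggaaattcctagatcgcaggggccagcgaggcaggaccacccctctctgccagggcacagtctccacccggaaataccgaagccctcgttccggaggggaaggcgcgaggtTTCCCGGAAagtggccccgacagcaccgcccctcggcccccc

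Motifs were searched on both strands: the kappa-B consensus bound by NF-kB, the AP-1 motif (TGACTCA or TGAGTCA), the STAT-bound GAS motif (TTCNNNGAA), the TCF/LEF motif of Wnt signalling (CTTTGA) and the TATA box (TATAAA). Read on the other strand TGACTCA is TGAGTCA, so both spellings are 1 motif, and no match overlapped one of another motif. The Icam1 window held 1 match, TTCCCGGAA, a GAS motif from 42 to 34 bases before the start. A GAS match was found in 7.04% of 32526 windows of the same length. The Pdpn and Alcam windows held 0 matches to these letters. In the F11r window there was 1, the AP-1 motif TGAGTCA from 109 to 103 bases before the start, a motif found in 4.45% of all windows. The other motifs were found in 3.92% (kappa-B), 13.9% (TCF/LEF) and 12.3% (TATA box) of all windows. A match describes the letters and is not evidence of binding. Looser spellings were not searched, and the kappa-B pattern had to begin with GGG. A window with 0 matches may therefore hold variants of these motifs.

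Vcam1 (ENSMUSG00000027962, chr3:116109949-116129688 on the minus strand) measured 135, 170 and 139 CPM in control libraries 1, 2 and 3 and 182, 219 and 171 CPM with DKK1. The groups came close without overlapping, since the highest control library, at 169.6 CPM, lay just under the lowest DKK1 library, at 171.3 CPM, and in both groups the library numbered 2 was the highest. Mean levels were 148 ± 18.7 CPM in control and 191 ± 24.9 CPM with DKK1 (SD, n = 3 each), a 1.28-fold difference with a 95% interval of 1.08 to 1.53. Without the block the log2 fold change of 0.36 (SE 0.11) was not called, at an edgeR p of 0.0105 before and 0.253 after adjustment. With the replicate block it was 0.36 (SE 0.03, edgeR adjusted p = 1.89e-06). Vcam1 was 34.5%, 29.0% and 22.8% higher in the pairs numbered 1, 2 and 3. DESeq2 without the block also called it (adjusted p = 0.0244). Without both libraries numbered 3, the log2 fold change was 0.39, with an edgeR adjusted p of 0.309 unpaired and 1.76e-05 with the block. Its antisense neighbour Gm43109 reached at most 3 counts in a library, against at least 3051 for Vcam1.

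Icam1 (ENSMUSG00000037405, chr9:21015985-21028817 on the plus strand) measured 41.3, 44.6 and 43.3 CPM in control and 49.96, 46.7 and 50.9 CPM with DKK1. All DKK1 libraries were above all control libraries, and in contrast to Vcam1 the library numbered 2 was the lowest of the DKK1 group. Its mean went from 43.1 ± 1.65 to 49.2 ± 2.19 CPM (SD, n = 3 each), 1.135-fold with a 95% interval of 1.05 to 1.23. Unpaired, the log2 fold change of 0.18 (SE 0.05) was not called, at an edgeR p of 0.00552 before and 0.192 after adjustment. The replicate block gave the same 0.18 (SE 0.05) with an adjusted p of 0.0233, which was called. The pairs numbered 1, 2 and 3 differed by 20.8%, 4.70% and 17.4%. The block call did not hold under DESeq2 with the block (adjusted p = 0.381), nor in edgeR with the block once both libraries numbered 3 were left out (log2 fold change 0.16, adjusted p = 0.135). An antisense gene, Gm47079, is annotated over Icam1 exons, and strandedness of the counting was not given in the sources used here.

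**Figure D2:**
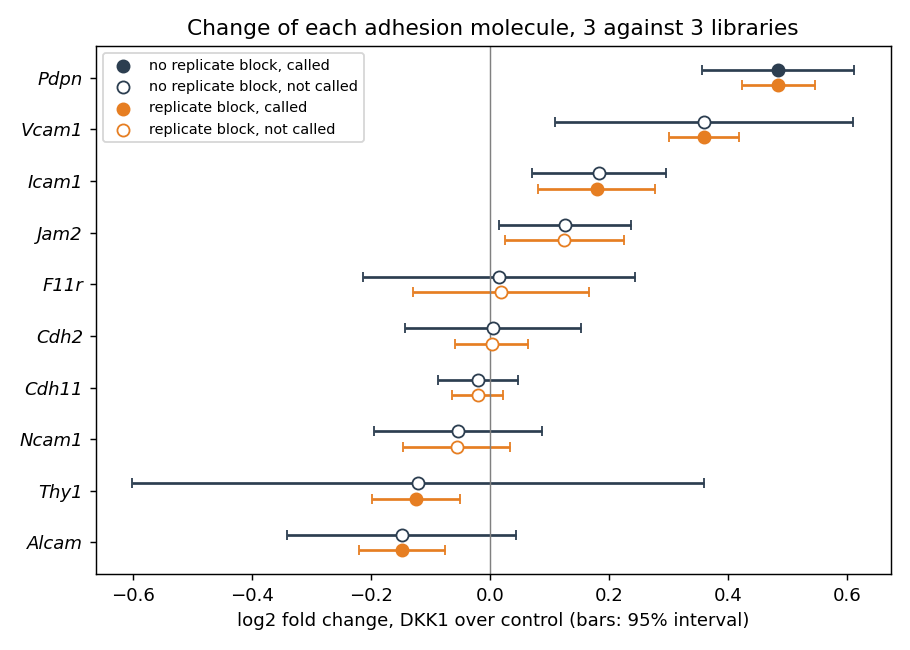
Log2 fold change of DKK1 over control for each of the 10 genes (horizontal axis), with 95% intervals, from the edgeR fit without (dark) and with (orange) the replicate number as a block, where filled points are called at an adjusted p under 0.05. The estimates of the 2 fits lie on top of each other, and only the width of the intervals differs, most of all for Thy1 and Vcam1.

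Among the DKK1 libraries that numbered 2 was the highest for Vcam1 and the lowest for Icam1, whereas in control it was the highest for both. The genes that most resembled each were then listed. Likeness was the root mean square difference of log2 CPM, centred on the mean of each gene, over 9222 other genes with at least 10 CPM on average. Nearest to Vcam1 were Gfpt2 (0.0430), Ier2 (0.0559) and Cebpd (0.0672), where the median gene differed by 0.241. Gfpt2 ran at 94.3, 115 and 96.0 CPM in control and 126, 143 and 110.2 CPM with DKK1, with the same high library in each group as Vcam1. Nearest to Icam1 were Zbtb33 (0.0273), Gnai1 (0.0299) and Elmod2 (0.0306), where the median gene differed by 0.123. Zbtb33 stood at 30.2, 32.7 and 31.0 CPM in control and 35.6, 34.8 and 35.9 CPM with DKK1. Each gene was picked as among the closest of 9222 over 6 libraries, so a shared pattern follows from the choice. Regulation in common was not tested.

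Thy1 (ENSMUSG00000032011, chr9:44043384-44048579 on the plus strand) encodes a GPI-anchored protein that marks many fibroblasts and binds integrins on leukocytes. It measured 61.3, 93.9 and 65.5 CPM in control and 55.9, 89.5 and 57.9 CPM with DKK1. Here the difference between libraries of a group was far larger than that between groups, since the libraries numbered 2 stood above the rest and the groups overlapped widely. Means were 73.6 ± 17.7 and 67.8 ± 18.9 CPM (SD, n = 3 each), and Thy1 had the largest coefficient of variation of the 10 members in control, 24.1%. Unpaired, the log2 difference of -0.12 had an SE of 0.21 and a 95% interval of -0.60 to 0.36 (edgeR adjusted p = 0.906). With the replicate block it was -0.12 (SE 0.03, adjusted p = 0.0354), and the level changed by -8.80%, -4.64% and -11.6% in the pairs numbered 1, 2 and 3. The block call did not hold under DESeq2 with the block (adjusted p = 0.547) or without both libraries numbered 3 (edgeR adjusted p = 0.165). Its unpaired sign turned when the control library numbered 2 was left out (log2 fold change 0.10, adjusted p = 0.923), and it was 0.00 without the DKK1 library numbered 1 (adjusted p = 0.999).

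Alcam (ENSMUSG00000022636, chr16:52248996-52454074 on the minus strand) encodes an immunoglobulin-type protein that binds CD6 on lymphocytes and itself on neighbouring cells. Its values were 62.8, 62.8 and 73.8 CPM in control and 57.3, 55.9 and 67.6 CPM with DKK1. The libraries numbered 3 were the highest of both groups, and the DKK1 library numbered 3 lay above the lower control libraries. Means were 66.5 ± 6.36 and 60.3 ± 6.39 CPM (SD, n = 3 each), and the log2 fold change was -0.15 unpaired (SE 0.08, adjusted p = 0.619, edgeR) and -0.15 (SE 0.03, adjusted p = 0.0126) with the replicate block. The unpaired value was -0.07 without the control library numbered 3 and -0.23 without the DKK1 library numbered 3. Alcam changed by -8.71%, -10.99% and -8.40% in the pairs numbered 1, 2 and 3. Without both libraries numbered 3 the block still called it (log2 fold change -0.16, adjusted p = 0.0404), whereas DESeq2 with the block did not (adjusted p = 0.385).

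Cdh11, which encodes cadherin-11 and is typical of fibroblasts and other mesenchymal cells, varied little among the control libraries, with a coefficient of variation of 1.07%. It measured 472, 463 and 463 CPM in control and 463, 453 and 467 CPM with DKK1. These values overlapped, and the log2 fold change, -0.02 with an SE of 0.03, had a 95% interval from -0.09 to 0.05 (edgeR adjusted p = 0.881). RSEM gave it fractional counts in 5 of the 6 libraries and Ncam1 in 3, as happens where a read is shared among genes. Cdh2 measured 139, 152 and 156 CPM in control and 140, 147 and 165 CPM with DKK1. In both groups the library numbered 1 was the lowest and that numbered 3 the highest, and the log2 fold change was 0.00 (SE 0.07, adjusted p = 0.993, 95% interval -0.14 to 0.15). It was -0.04 without the control library numbered 1, -0.06 without the DKK1 library numbered 3 and -0.03 without both libraries numbered 3.

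Ncam1, the neural cell adhesion molecule, which binds itself between cells, measured 58.8, 67.8 and 58.9 CPM in control and 60.6, 60.6 and 58.2 CPM with DKK1. The control library numbered 2 stood above the other 5 libraries, and the log2 fold change was -0.05 with an SE of 0.06 and a 95% interval of -0.20 to 0.09 (edgeR adjusted p = 0.838). Leaving that library out gave 0.02. The Schwann and neural markers, a cell type in which Ncam1 is also high, summed to 21.4, 24.9 and 28.2 CPM in control and to 27.3, 27.9 and 24.8 CPM with DKK1, with Sox10 at most 1.99 CPM. Their part in the Ncam1 level was not tested.

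F11r and Jam2 encode junctional adhesion molecules A and B, immunoglobulin-type proteins of cell contacts. JAM-A binds the leukocyte integrin LFA-1, and JAM-B binds alpha4 beta1. F11r measured 15.3, 16.9 and 19.8 CPM in control and 17.7, 16.2 and 19.0 CPM with DKK1. The libraries numbered 3 were the highest of both groups, as they were for the summed epithelial markers, whose part in the F11r level was not tested. The F11r difference was 0.01 on the log2 scale (SE 0.10, 95% interval -0.21 to 0.24, edgeR adjusted p = 0.984), and it was -0.06 without the control library numbered 1, -0.00 without the control library numbered 2 and -0.04 without the DKK1 library numbered 3.

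Jam2 measured 29.4, 29.9 and 29.8 CPM in control and 34.2, 31.8 and 31.7 CPM with DKK1. The control values were the tightest of the 10 members, with a coefficient of variation of 0.904%, and all DKK1 libraries lay above them. Unpaired, its log2 fold change was 0.13 (SE 0.05), with an edgeR p of 0.0311 before and 0.385 after adjustment. With the replicate block it was 0.12 (SE 0.05, adjusted p = 0.127), so neither fit called it. Jam2 was 16.2% higher in the pair numbered 1 and 6.23% and 6.24% higher in the pairs numbered 2 and 3.

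Levels were compared between genes only per length, as CPM per kilobase of annotated exon. Pdpn led, at 64.1 ± 3.47 CPM per kilobase in control and 89.9 ± 4.98 with DKK1, followed by Cdh11 at 52.3 ± 0.558 and 51.8 ± 0.793 (SD, n = 3 each). Thy1 (24.6 ± 5.92 in control), Cdh2 (18.5 ± 1.14) and Vcam1 (16.7 ± 2.11) formed the next group, in which the ranges of neighbours over the 6 libraries overlapped. In the DKK1 libraries Vcam1, at 21.5 ± 2.80 CPM per kilobase, stood in place 4, ahead of Cdh2 at 18.7 ± 1.58, and in control it stood in place 5. Icam1 came next at 9.89 ± 0.377 in control and 11.3 ± 0.502 with DKK1, overlapping Alcam at 9.33 ± 0.893 and 8.46 ± 0.898. Ncam1 (7.14 ± 0.592 in control) and F11r (6.52 ± 0.854) overlapped each other, and Jam2 was last at 4.92 ± 0.0445 in control and 5.39 ± 0.234 with DKK1. The places depended on the gene model: with the longest transcript as the length, Cdh11 (82.1 CPM per kilobase over all 6 libraries) came before Pdpn (77.0), Vcam1 (41.4) before Thy1 (40.7), and Jam2 (7.13) before F11r (6.95).

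**Figure D3:**
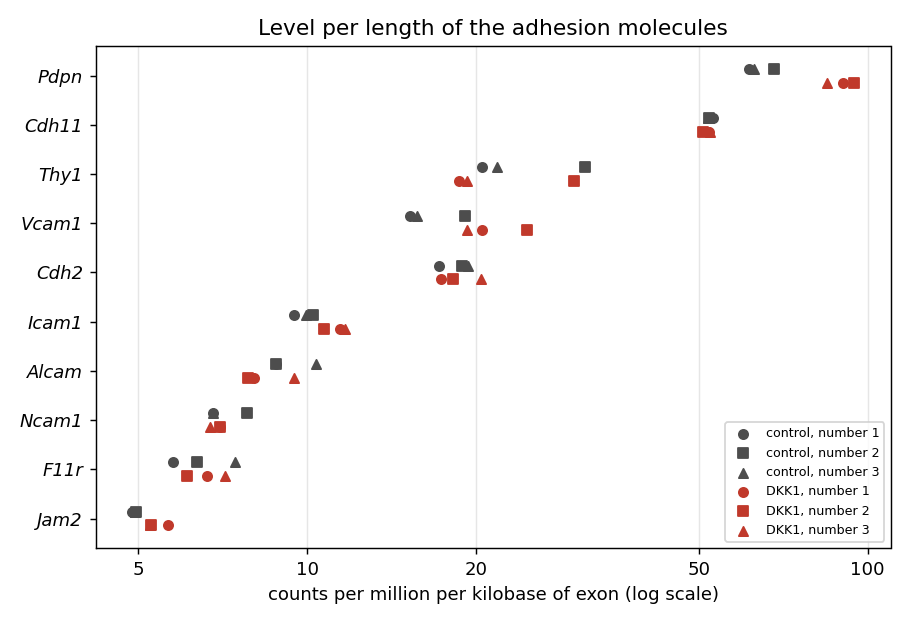
Level per length of the 10 transcripts in each library (horizontal log axis, CPM per kilobase of annotated exon), with control libraries in grey above DKK1 libraries in red and a symbol for each replicate number. Pdpn and Cdh11 lie above 50 CPM per kilobase in all 6 libraries, and the DKK1 libraries stand to the right of the control libraries for Pdpn, Vcam1, Icam1 and Jam2.

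Other genes of cell adhesion were taken from 4 lists. Of 22 tested relatives with immunoglobulin-type domains, 2 were called higher, 0 lower and 20 not called, beside 0.697% higher and 0.198% lower over all tested genes, with a median log2 fold change of -0.02. Cd47, a surface protein that binds thrombospondin and the myeloid receptor SIRP-alpha, rose from 78.0 ± 3.37 to 97.8 ± 2.97 CPM (SD, n = 3 each; log2 fold change 0.32, SE 0.05, edgeR adjusted p = 0.02). Nectin2, which binds DNAM-1 on lymphocytes and other nectins, rose from 134 ± 3.36 to 158 ± 3.79 CPM (log2 fold change 0.23, SE 0.03, adjusted p = 0.0236). Under the replicate block, 3 were called higher and 1 lower, beside 4.96% and 4.46% of all tested genes. The calls it added were Pvr, the poliovirus receptor and also a DNAM-1 ligand (log2 fold change 0.13, block adjusted p = 0.0106), and Mcam, the melanoma cell adhesion molecule (-0.27, block adjusted p = 0.000125). The unpaired Mcam value was -0.15 without the control library numbered 3 and -0.40 without the DKK1 library numbered 3. Its block call held under DESeq2 with the block (adjusted p = 0.00176). It also held in edgeR with the block without both libraries numbered 3 (adjusted p = 0.00248). Mcam also marks pericytes. The other 5 pericyte markers summed to 50.9, 66.7 and 68.0 CPM in control and to 52.2, 67.2 and 63.8 CPM with DKK1. Under the block Kcnj8 of that list was called higher (log2 fold change 0.65, adjusted p = 0.000213) and Cspg4 lower (-0.46, adjusted p = 0.000356). The Pvr call did not hold under DESeq2 with the block (adjusted p = 0.269). Leaving out control library 1 or 2 or DKK1 library 1 or 2 ended the calls of both Cd47 and Nectin2, leaving out control library 3 also that of Nectin2, and their adjusted p-values reached 0.0986 and 0.117.

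Among 11 tested cadherins and catenins, 0 were called by edgeR, beside 0.697% higher and 0.198% lower over all tested genes. At an unadjusted p under 0.05 there were 0, beside 10.6%. DESeq2 called 0, beside 1.50% higher and 0.618% lower. The median log2 fold change of the list was -0.00. Under the block 2 were called lower, beside 4.46% of all tested genes. They were Cdh3, P-cadherin, at 4.31 ± 1.10 CPM in control and 2.86 ± 1.04 CPM with DKK1 (SD, n = 3 each; log2 fold change -0.61, block adjusted p = 0.0182), and Jup, plakoglobin (-0.14, block adjusted p = 0.00956). DESeq2 with the block called 0 of the list (adjusted p = 0.38 for Cdh3 and 0.278 for Jup), and without both libraries numbered 3 the edgeR block fit gave 0.0543 for Cdh3. Ctnnb1, which encodes beta-catenin, the cadherin partner that also carries Wnt signals, ran between 678 and 703 CPM in the 6 libraries (log2 fold change 0.02, edgeR adjusted p = 0.899).

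Receptors that bind these molecules, most of them known from leukocytes, and the selectins were also measured. Several are not particular to leukocytes: Selp and Sele are known from endothelium and platelets, and Itgb1 and Itgav from many cells. Of 13 tested counter-receptors and selectins, 0 were called by edgeR without the block, beside 0.697% higher and 0.198% lower over all tested genes. At an unadjusted p under 0.05 there were 3, beside 10.6% of all tested genes. DESeq2 called 1 higher, Selp, beside 1.50%, and the median log2 fold change of the list was 0.13. With the block 3 were called higher and 1 lower, beside 4.96% and 4.46% of all tested genes. Itgam, the alpha chain of Mac-1, which binds ICAM-1, measured 11.5, 12.6 and 20.6 CPM in control and 26.3, 25.0 and 43.2 CPM with DKK1, without overlap (log2 fold change 1.07, SE 0.26, adjusted p = 0.136 unpaired; SE 0.06, adjusted p = 7.23e-08 with the block). Without both libraries numbered 3, Itgam was called also unpaired (log2 fold change 1.08, edgeR adjusted p = 0.00416). Its partner chain Itgb2 had a log2 fold change of 0.40 unpaired (adjusted p = 0.682) and 0.41 with the block (adjusted p = 2.73e-05). The unpaired value was 0.10 without the DKK1 library numbered 3 and 0.72 without the control library numbered 3. Selp, P-selectin, measured 3.27 ± 0.978 CPM in control and 6.34 ± 2.17 CPM with DKK1 (SD, n = 3 each). It was called higher with the block (log2 fold change 0.93, adjusted p = 0.000621). None of its 6 unpaired fits with 1 library left out called it (edgeR adjusted p = 0.227 to 0.521). Itga4, a chain of the VCAM-1 receptor, measured 6.79 ± 0.527 CPM in control and 5.25 ± 0.603 CPM with DKK1 (SD, n = 3 each; log2 fold change -0.38, block adjusted p = 0.0335). Its call did not hold under DESeq2 with the block (adjusted p = 0.716) or in edgeR with the block without both libraries numbered 3 (adjusted p = 0.11).

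Leukocyte markers beside these values did not move as one. The lowest adjusted p of the 8 tested was 0.0705 without the block, for S100a8 (edgeR). With the block, Adgre1 (log2 fold change 0.54, adjusted p = 0.00179) and S100a8 (1.502, adjusted p = 0.000308) were called higher and Csf1r was called lower (-0.25, adjusted p = 0.0364). S100a8 was scarce, at 0.798 to 1.68 CPM in control and 2.56 to 4.03 CPM with DKK1. Ptprc, which encodes the pan-leukocyte protein CD45, ran at 8.20, 8.88 and 13.3 CPM in control and 7.08, 7.29 and 13.5 CPM with DKK1. Whether leukocytes in the cultures contribute to the Itgam and Itgb2 values was not tested.

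**Figure D4:**
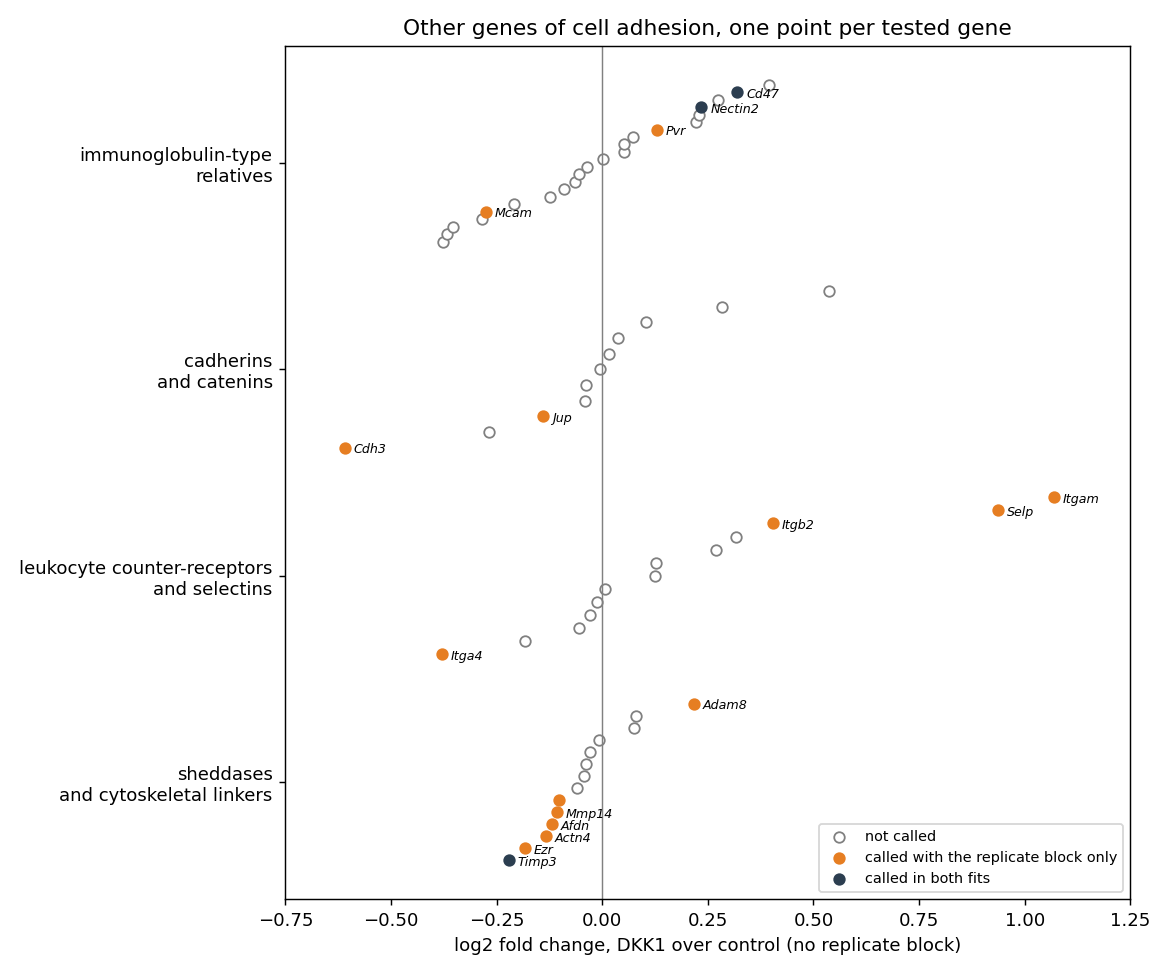
Log2 fold change of DKK1 over control (horizontal axis, fit without the replicate block) of every tested gene of the 4 lists, 1 point a gene, ordered by value within each list. Dark points (Cd47, Nectin2 and Timp3) were called in both fits and orange points with the replicate block only, and Itgam and Selp lie farthest to the right.

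Proteins that cut adhesion molecules from the surface or tie them to actin were tested as 14 genes, of which 0 were called higher, 1 lower and 13 not called, where 0.198% of all tested genes were called lower (edgeR, 5 at an unadjusted p under 0.05, beside 10.6% of all tested genes, and 3 lower by DESeq2, beside 0.618%). Their median log2 fold change was -0.05. Timp3, an inhibitor of ADAM17 and of matrix metalloproteinases, fell from 679 ± 8.25 to 585 ± 14.5 CPM (SD, n = 3 each; log2 fold change -0.22, SE 0.03, edgeR adjusted p = 0.02). The call ended without control library 1 or 2 or DKK1 library 1 or 2, with an adjusted p of up to 0.11. Under the block 6 were called lower and 1 higher, beside 4.46% and 4.96% of all tested genes. The lower ones included Mmp14 (log2 fold change -0.11, block adjusted p = 0.00195), a membrane-bound protease, and the actin linkers Actn4 (-0.13, 0.000148), Afdn (-0.12, 0.0173) and Ezr (-0.18, 0.0242). The unpaired Ezr value was -0.02 without the control library numbered 3, -0.03 without the DKK1 library numbered 2 and -0.41 without that numbered 3. The sheddase gene Adam8 was the higher one (0.22, block 0.24, adjusted p = 0.0411), and its unpaired value was -0.06 without the DKK1 library numbered 3. DESeq2 with the block did not call Afdn, Ezr or Adam8 (adjusted p = 0.275, 0.355 and 0.732), nor did the edgeR block fit without both libraries numbered 3 call Afdn or Adam8 (0.111 and 0.0853). Adam17 and Adam10, the sheddases best known for VCAM-1 and N-cadherin, did not pass in either fit, with log2 fold changes of 0.08 and -0.03. Neither did Msn, which encodes the podoplanin linker moesin (-0.01, edgeR adjusted p = 0.97).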

How the data were processed

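RNA was sequenced from mouse lung fibroblasts in 6 libraries. The table the authors deposited gives RSEM expected counts per gene, going by its name and columns, with no scaling seen in the values. STAR, RSEM, edgeR 4.2.1 and the builds GRCm38 and mm10 are named, without roles, in the submitters' processing notes. Annotation release, strandedness and filters are not given in the sources used here. A gene name table gave symbols for 98.8% of the 45706 identifiers, and gene models came from GENCODE M21 (GRCm38).

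Expected counts were rounded, then tested with edgeR 4.0.16 (R 4.3.3): filterByExpr with a minimum count of 10, TMM factors, the quasi-likelihood test (two-sided) with group as the only term, and Benjamini-Hochberg adjustment over all 14635 tested genes. Genes were called at an adjusted p under 0.05. SE is the absolute log2 fold change over the square root of F, and 95% intervals use the test's degrees of freedom. The procedure was tested on simulated data. Levels are CPM of whole libraries of 22565917 to 34727102 counts. A floor of 3 counts is 0.0864 to 0.133 CPM, which covers counting error only, and PCR reads without molecular identifiers are not independent molecules. Replicates differed by more than sampling noise, with chi-square values of 4.90 to 7.63 per degree of freedom.

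The titles number the replicates 1 to 3 in both groups. Deviations of same-numbered libraries from their group means correlated across genes at 0.349, 0.335 and 0.498, so values with the number as a block are given where they change a call. Genes are not independent replicates.

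Members and lists were chosen with earlier results of these data known. All 10 members are named, and from each other list up to 6 genes called in either fit, by the size of the log2 fold change. Marker genes, Ctnnb1, Adam10, Adam17 and Msn were named after their values were seen. Alternatives were DESeq2 1.42.0 and its size factors, library totals, other filters, limma-voom (limma 3.58.1), unrounded counts, equal depth, the block and leaving out each library. Chosen after seeing the data were the block under DESeq2 or library totals, leaving out both libraries numbered 3, and the lengths of the listed transcripts.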

Additional observations from a re-analysis of the deposited data

How the results depend on the processing

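The unpaired comparison called 131 genes. The count was 329 without the low-count filter, 291 with DESeq2, 551 with DESeq2 and the replicate block, 1379 with the replicate block, 1374 with the replicate block and library totals, and 1059 with the replicate block once both libraries numbered 3 were left out. It ran from 36 to 139 when 1 library was left out: 51 and 36 without control replicates 1 and 2, and 44 and 57 without DKK1 replicates 1 and 2. A fit without 1 library has fewer samples, and for the other settings the cause was not tested.

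Among the members, 1 call became 2 without the filter, with DESeq2 or with DESeq2 and the block, 5 with the block with or without library totals, and 3 with the block without number 3. Leaving out 1 library gave 0 (without DKK1 replicate 1) to 1. The 2 calls among immunoglobulin-type relatives became 4 with the block (also with library totals) and 5 with the block without number 3, and 0 to 2 with 1 library left out. For cadherins and catenins, 0 became 2 with the block (also with library totals), 1 with the block without number 3 and 0 with DESeq2 and the block. For counter-receptors and selectins, 0 became 2 without the filter, 4 with the block in each of its edgeR forms, 1 with DESeq2, 3 with DESeq2 and the block, and 1 unpaired without number 3. For sheddases and linkers, 1 became 7 with the block (also with library totals), 5 with the block without number 3, 3 with DESeq2, 4 with DESeq2 and the block, and 0 to 1 with 1 library left out.

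The log2 fold change of Vcam1 passed at 0.363 without the filter, 0.360 with the block, 0.358 with DESeq2 with or without the block, 0.365 with the block and library totals, and 0.388 with the block without number 3. Its 6 fits with 1 library left out gave 0.244 to 0.472 and did not pass. Icam1 passed at 0.179 with the block and 0.184 with the block and library totals, Thy1 at -0.125 and -0.120, and Alcam at -0.148 and -0.143, or -0.157 with the block without number 3. The sign of Cdh2 turned to -0.0299 without number 3 and -0.0303 with the block added. With 1 library left out, Cdh2 ran from -0.0597 to 0.0534, Thy1 from -0.385 to 0.101 (0.00119 without DKK1 replicate 1), Ncam1 from -0.0949 to 0.0209, F11r from -0.0640 to 0.110, Alcam from -0.233 to -0.0748, Mcam from -0.396 to -0.146, Cdh3 from -0.915 to -0.393, Jup from -0.232 to -0.0602, Ezr from -0.408 to -0.0209, Adam8 from -0.0602 to 0.560, and Pdpn from 0.441 to 0.533. Pdpn kept its sign in 19 of 19 alternatives and its call in all but that without DKK1 replicate 1. With the longest transcript as length, 4 of 10 members kept their place in the order of levels. In a fit without 1 library, the group of 2 is assumed to vary like the other. Without the strandedness, antisense overlap could not be resolved, least of all for Icam1, where no counts of Gm47079 were available. The antisense neighbours of Vcam1 and Ncam1 reached at most 3 and 1.01 counts in a library. The member with the fewest counts, F11r, rests on 346 to 564 counts in a library.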
